A study of Mus musculus with 25 samples.

Results

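The interferon gene Ifnb1 and the genes of the interferon receptor chains, Ifnar1, Ifnar2, Ifngr1 and Ifngr2, were followed through 25 RNA-seq libraries of mouse macrophages in 9 conditions. These 5 genes were taken by their symbols out of 24411 in the count tables, and each symbol was found once in every library. The cells were bone marrow-derived macrophages (BMDMs) of C57BL/6 mice, grown in M-CSF (25 ng/ml) over 4 days, and RAW264.7, an established mouse macrophage cell line. BMDMs were left untreated (control, labelled as cultured for 4 h), were primed with 100 U/ml IFN-γ and given 100 ng/ml LPS for 1, 4, 12 or 24 h, or received 10 ng/ml IL-4 or 10 ng/ml IL-13 for 12 h, with 3 libraries in each of these 7 groups. RAW264.7 cells were untreated or received 100 ng/ml LPS for 4 h without IFN-γ, with 2 libraries in each group. The control is the same for every BMDM comparison and was not matched in time to the 1, 12 and 24 h groups. No group with IFN-γ alone was analysed here, so the parts of IFN-γ and of LPS in the treated BMDMs cannot be told apart. The study's methods describe the replicates as biological, with RNA samples that were independent, but do not say whether these came from separate animals or cultures, so the p-values measure the spread between these libraries. The time for which IFN-γ was given before LPS is not given in the sources used here, so each time in the treated BMDMs counts from LPS and follows an unknown time with IFN-γ.

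Type I interferons such as interferon beta, the product of Ifnb1, bind a receptor made of IFNAR1 and IFNAR2, whereas interferon gamma binds IFNGR1 and signals together with IFNGR2. The receptor chains carry the kinases TYK2 (IFNAR1), JAK1 (IFNAR2 and IFNGR1) and JAK2 (IFNGR2), which phosphorylate STAT proteins. In macrophages, LPS acts through TLR4, and the adaptors TICAM2 and TICAM1 lead from this receptor through TBK1 and IRF3 to transcription of Ifnb1.

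In the GENCODE M21 annotation of GRCm38 (mm10), Ifnb1 is a gene of 750 exonic bases on the minus strand of chromosome 4, from 88522025 to 88522774. Ifngr1 lies on the plus strand of chromosome 10, from 19591949 to 19610229. The other receptor genes lie on the plus strand of chromosome 16, Ifnar2 from 91372783 to 91405589, Ifnar1 from 91485238 to 91507441 and Ifngr2 from 91547072 to 91565623, so that all 3 fall within 193 kb. The 250 bases before the annotated start of each gene were read from RefSeq (GRCm38.p6), in which all 5 genes had an entry. Distances are counted from the RefSeq starts, which for Ifnb1, Ifnar1 and Ifngr2 are not the GENCODE ones. Stretches are shown for the 3 genes in which a searched motif was found, in lower case with the motif in capitals, because the induction of Ifnb1 and the courses of Ifnar2 and Ifngr2 are described here.
Ifnb1, chr4:88522870-88522959, minus strand: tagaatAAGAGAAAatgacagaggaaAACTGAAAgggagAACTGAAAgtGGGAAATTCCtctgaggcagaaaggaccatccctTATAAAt
Ifnar2, chr16:91372561-91372585, plus strand: ccaaggccTTCCTGGAAgaagagag
Ifngr2, chr16:91546974-91547003, plus strand: ggaacaccggGGAAAGTCCCcacgggccgg
The Ifnb1 stretch runs from 165 to 76 bases before the start and holds 3 matches to AANNGAAA (the core of sites for IRF factors), 1 kappaB-like match and 1 match to TATAAA. A further TATAAA begins 210 bases before the start. Both strands were searched, and the kappaB-like match in Ifngr2, 75 to 66 bases before its start, reads on the opposite strand. The capitals in Ifnar2 match TTCNNNGAA (the core of a STAT site) and begin 214 bases before its start. Of all 32851 promoter windows of this length, AANNGAAA was present in 21.3% (3 or more times in 0.849%), the kappaB-like motif in 1.21%, TATAAA in 12.4% and TTCNNNGAA in 7.02%. None of the 5 windows held an interferon-stimulated response element (ISRE, in 2.98% of windows) or the AP-1 motif TGANTCA (in 6.75%), and the windows of Ifnar1 and Ifngr1 held none of the 6 motifs. The motif AANNGAAA was added after the Ifnb1 sequence had been seen, and every ISRE match contains it. The share of G and C was 39.6% in the Ifnb1 window and 54, 59.2, 65.6 and 74% in those of Ifnar2, Ifngr1, Ifnar1 and Ifngr2, against a median of 52.4% over all windows.

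The libraries held between 1502618 and 2532496 counts on genes after removal of Rn45s, a ribosomal precursor that took 20.1 to 39.8% of the counts. Levels are given as CPM, gene counts scaled to library size, with TMM normalization over all 25 libraries, and differences as log2 fold changes with their standard errors (SE) from edgeR's quasi-likelihood fits, in which a gene was called at a Benjamini-Hochberg adjusted p of at most 0.01 over all genes tested. TMM mattered in the treated BMDMs. Scaled by library size alone, the median log2 fold change of all genes against the control became -0.22 in place of -0.03 at 1 h, -0.61 in place of -0.07 at 4 h, -0.34 in place of -0.03 at 12 h and -0.20 in place of 0.02 at 24 h. The share of calls that were higher dropped at the same time, to 35.6 from 56.6%, to 24.3 from 50.4%, to 31.1 from 50.6% and to 36 from 52.8%. Antisense counts on Rn45s, as a share of the Rn45s counts on both strands, split the BMDM libraries. The share was 0.0386 to 0.122% in 12 of them (the control and all times up to 12 h). In the other 9 (24 h and both cytokines) it was 0.00603 to 0.0214%. The labels name no batch, and this split cannot be told apart from the contrasts that cross it.

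Ifnb1 was not detected in unstimulated macrophages and was highest at 1 h after LPS. It had 0 counts in all 3 control libraries, and 46.5, 67.7 and 87.7 CPM in the 3 libraries with LPS for 1 h, on 83, 105 and 173 counts. At 4 h it had 25.7, 24.9 and 18.1 CPM, on 29, 32 and 22 counts. These groups did not overlap with each other or with the control. A count of 0 over the control group allows up to 0.539 CPM (3 counts over the group). Ifnb1 was thus at least 125-fold higher at 1 h and at least 42.5-fold higher at 4 h. Intervals and limits from counts cover counting error only. In the fit Ifnb1 was called at both times (edgeR adjusted p = 1.59e-12 and 1.32e-08). It entered the fit through these groups, so these p-values add no support of their own. The fitted fold changes against a control of 0 are not given, and serve only for the fold cutoff and the counts of alternatives below.

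Between 1 and 4 h Ifnb1 fell by 1.59 on the log2 scale (SE 0.25, edgeR adjusted p = 7.43e-06), and between 4 and 12 h it fell by 4.40 (SE 0.57, adjusted p = 4.31e-07). Both steps start from a group through which Ifnb1 entered the fit, so these p-values add no support of their own either. The libraries did not overlap at either step. At 12 h the counts were 0, 2 and 3, and at 24 h they were 3, 0 and 0. Neither group was called against the control (edgeR adjusted p = 0.078 and 0.21), and the means of 1.02 ± 0.917 and 0.49 ± 0.848 CPM (SD, n = 3) lie close to the limit that a count of 0 allows. With IL-4 and with IL-13 Ifnb1 had 0 counts in every library, which allows up to 0.558 and 0.531 CPM.

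No other interferon gene was detected at a level that could be tested. Of 20 further ligand genes, among them the interferon alpha genes, Ifng and the lambda genes Ifnl2 and Ifnl3, 15 had no sense count in any of the 25 libraries, and the 20 together had 13. The highest value in a library was 3 counts, for Ifna4. The interferon alpha genes are near-identical copies of each other, between which reads can be split or lost, so their low counts are uncertain.

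The receptor genes, unlike Ifnb1, were expressed in every library. Per kilobase of exon, the control BMDMs held 62.1 ± 4.63 CPM of Ifngr1 and 56.2 ± 2.98 of Ifngr2, against 31.9 ± 1.91 of Ifnar1 and 32.2 ± 0.888 of Ifnar2 (SD, n = 3). The chains of the same receptor were thus within 1 SD of each other in the case of Ifnar1 and Ifnar2 and differed by less than the sum of their SDs in the case of Ifngr1 and Ifngr2.

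**Figure D1:**
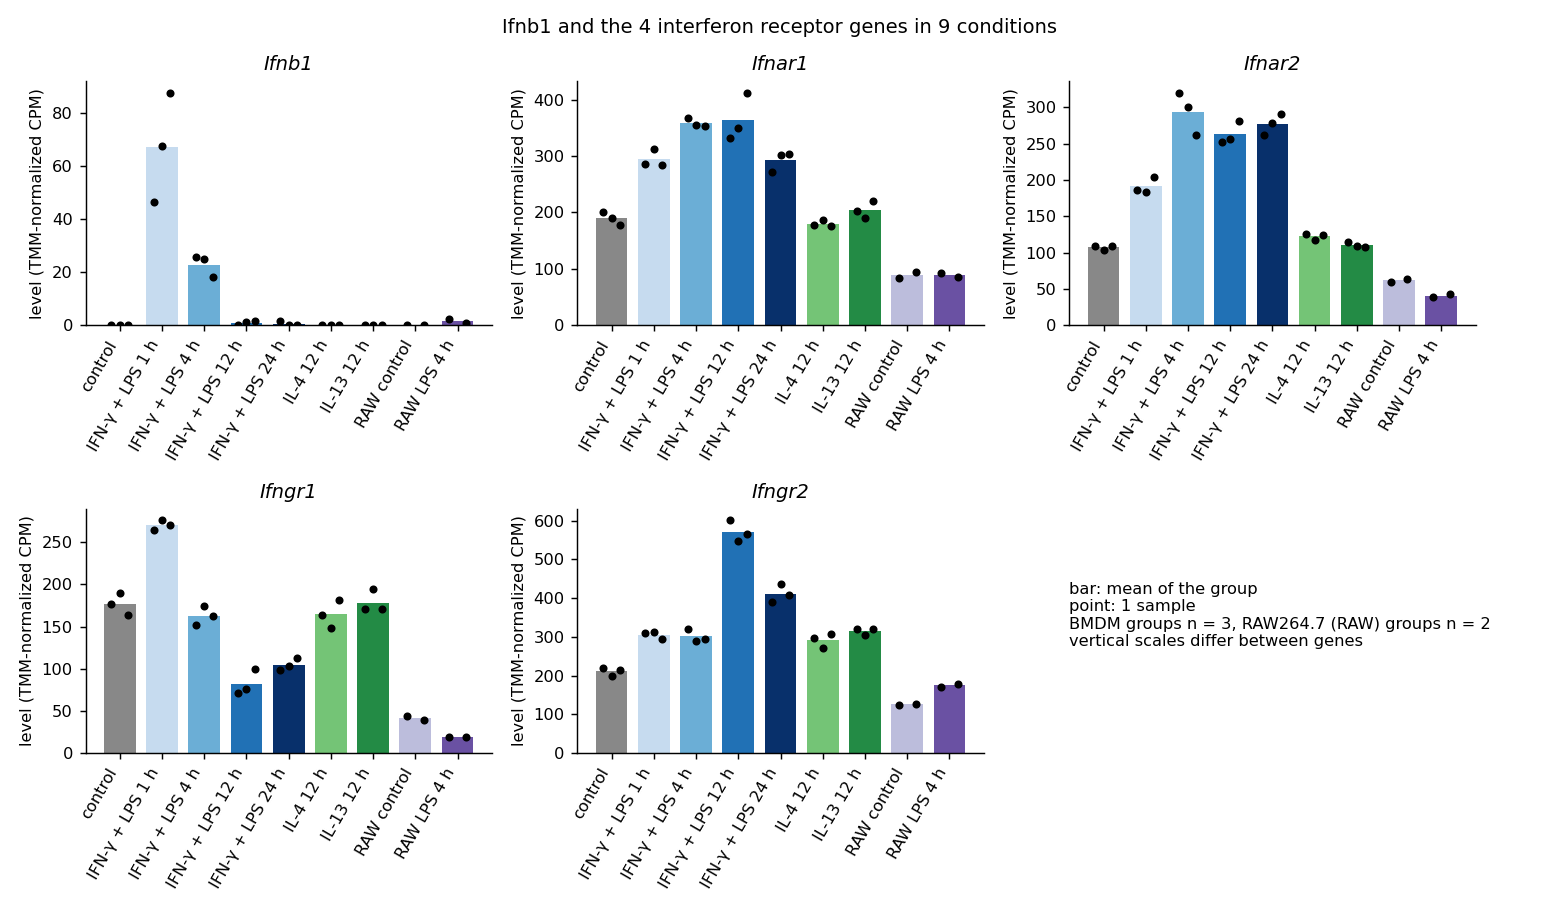
Level of each gene in TMM-normalized CPM (vertical axis, from 0 and with its own scale for each gene) in the 9 conditions. Bars are group means and points are libraries (3 for each BMDM group, 2 for each RAW264.7 group). Ifnb1 stands out at 1 and 4 h, Ifngr1 is highest at 1 h and lowest among BMDMs at 12 h, and Ifngr2 is highest at 12 h.

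Ifnar1, the chain of the type I receptor that carries TYK2, rose at all 4 times with IFN-γ and LPS. It had 201, 189 and 178 CPM in the control libraries, 285, 312 and 285 CPM at 1 h and 366, 355 and 353 CPM at 4 h. At 12 h it had 332, 349.8 and 412 CPM, and at 24 h 271, 302 and 304 CPM. No treated library overlapped with the control. The log2 fold changes against the control were 0.60 (SE 0.096), 0.86 (SE 0.097), 0.90 (SE 0.095) and 0.62 (SE 0.095) at 1, 4, 12 and 24 h, with edgeR adjusted p = 1.18e-06, 9.94e-11, 2.18e-11 and 2.28e-07. In the order of the levels, 12 h and 4 h overlapped, as did 1 h and 24 h. IL-13, control and IL-4 overlapped in that order below them.

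Ifnar2, the chain that carries JAK1, was higher than the control at all 4 times. Its levels were 109, 104 and 109 CPM in the control, 187, 184 and 204 CPM at 1 h and 320.3, 300.3 and 262 CPM at 4 h. At 12 and 24 h the libraries held 253, 257 and 282 CPM, and 263, 279 and 291 CPM. The log2 fold changes were 0.81 (SE 0.10), 1.40 (SE 0.10), 1.25 (SE 0.10) and 1.37 (SE 0.10), with edgeR adjusted p = 8.86e-09, 1.45e-16, 5.02e-15 and 1.50e-16. The highest levels, at 4, 24 and 12 h, overlapped with their neighbours, and all lay above 1 h.

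Ifngr1, the chain that binds interferon gamma, rose first and then fell. The control libraries held 177, 189.9 and 164 CPM, and those at 1 h 265, 276 and 270.2 CPM, a log2 fold change of 0.58 (SE 0.10, edgeR adjusted p = 7.35e-06). At 4 h the levels of 152, 174 and 163 CPM overlapped with the control, with a log2 difference of -0.17 (SE 0.11, adjusted p = 0.17). At 12 h Ifngr1 had 70.6, 75.6 and 100.2 CPM, and at 24 h 98.4, 103 and 112 CPM, all below the lowest control. The log2 fold changes were -1.15 (SE 0.11, adjusted p = 3.37e-12) and -0.76 (SE 0.11, adjusted p = 4.62e-08). With genes limited to those of 10 counts or more in each library, the difference at 4 h was called as well, at -0.33 (adjusted p = 0.00789), and under library size alone at -0.70 (adjusted p = 1.28e-07), where the median of all genes stood at -0.61.

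Ifngr2, the signalling chain that carries JAK2, was higher than the control at all 4 times (at 4 h not under library size alone), with its highest level at 12 h. It had 221, 199 and 216 CPM in the control, 311, 311 and 296 CPM at 1 h and 321, 289 and 294 CPM at 4 h. At 12 h it reached 601, 549 and 566 CPM, and at 24 h it had 389, 435 and 407 CPM. Per kilobase of exon its 12 h level was 152 ± 7.04 CPM (SD, n = 3), the highest mean of the 5 genes in any of the 9 conditions. No treated library overlapped with the control. The log2 fold changes were 0.50 (SE 0.092), 0.45 (SE 0.094), 1.39 (SE 0.091) and 0.95 (SE 0.090), with edgeR adjusted p = 1.80e-05, 5.22e-05, 1.96e-18 and 8.43e-13. The call at 4 h rested on TMM: under library size alone the value was -0.08 (adjusted p = 0.46), which was 0.53 above the median of all genes.

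At 1 h all 4 receptor genes were called higher, against 14.7% of 9568 genes tested. Ifnb1 was called as well, but entered the fit through the 1 and 4 h groups. At 4 h Ifnar1, Ifnar2 and Ifngr2 were higher, and with the same limit Ifnb1, against 26% of genes. At 12 h Ifnar1, Ifnar2 and Ifngr2 were higher (23.9% of genes) and Ifngr1 was lower (23.4%), and at 24 h the same 3 were higher (23.9%) and Ifngr1 lower (21.3%). With the study's further cutoff of a log2 change of 1.5, Ifnb1 was called at 1 h and at 4 h (5.04% and 11.4% of genes), and no receptor gene passed in any of the 11 comparisons within the time course, the IL-4 and IL-13 groups and the RAW264.7 groups, where that cutoff was 1.5, 0.7 and 2.

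**Figure D2:**
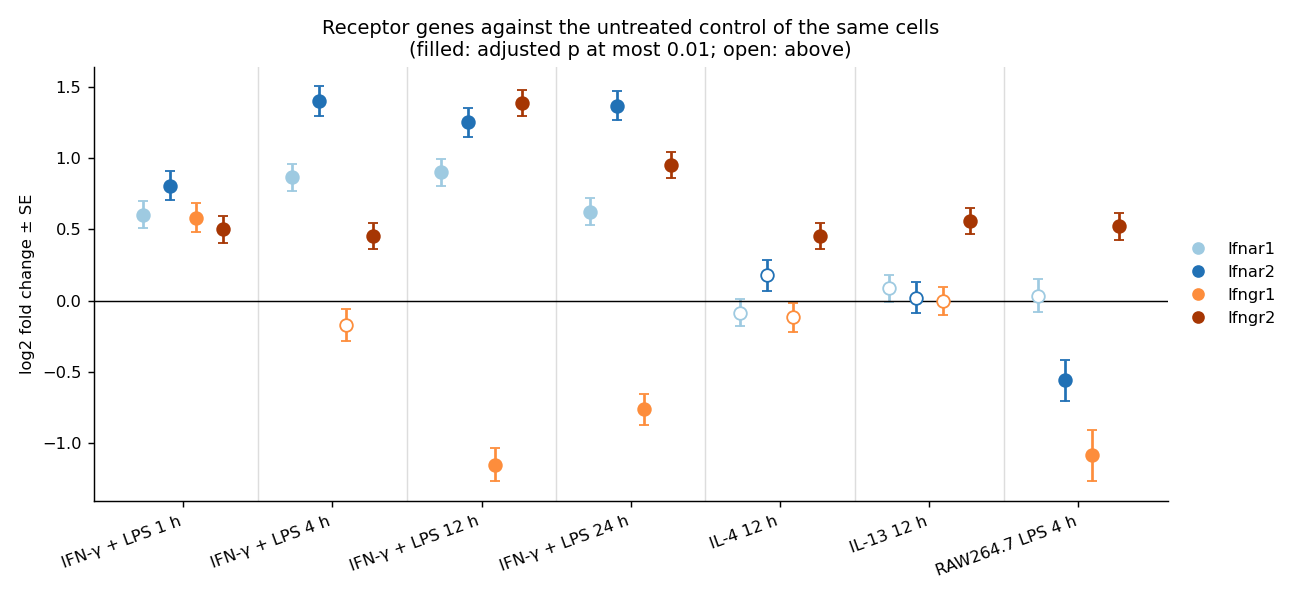
Log2 fold change of the 4 receptor genes against the untreated control of the same cells (vertical axis, with SE) for the 7 treatments (horizontal axis). Filled points passed an adjusted p of at most 0.01 and open points did not. Ifngr1 goes from 0.58 at 1 h to -1.15 at 12 h while Ifngr2 goes from 0.50 to 1.39.

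From one time to the next, the receptor genes changed at different steps. From 1 to 4 h Ifnar2 rose by 0.59 (SE 0.098, edgeR adjusted p = 1.51e-06) and Ifngr1 fell by 0.75 (SE 0.11, adjusted p = 6.03e-08), whereas Ifnar1 (0.26, adjusted p = 0.020) and Ifngr2 (-0.05, adjusted p = 0.71) were not called. The background was 19.8% of genes higher and 19.1% lower. When scaled by library size alone, the step of Ifnar2 was 0.25 (adjusted p = 0.022), that of Ifnar1 was -0.08 and that of Ifngr2 was -0.38 (adjusted p = 0.00041), where the median of all genes moved by -0.37 and the share of calls that were higher from 51 to 27%.

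From 4 to 12 h Ifngr2 rose by 0.93 (SE 0.091, edgeR adjusted p = 3.41e-12) and Ifngr1 fell by 0.98 (SE 0.12, adjusted p = 2.20e-09), against 16.7% of genes higher and 19.2% lower (the share of calls that were higher moved from 46.4 to 65.6% under library size alone). The type I receptor genes were not called at this step (Ifnar1 0.03, adjusted p = 0.79, and Ifnar2 -0.15, adjusted p = 0.21), and the sign of the Ifnar2 value turned to 0.07 under library size alone. From 12 to 24 h Ifngr2 fell by 0.44 (SE 0.086, adjusted p = 0.00011), against 8.9% of genes lower. Ifngr1 moved back by 0.39 (SE 0.12, adjusted p = 0.013), which was not called. Without the third 12 h library, whose Ifngr1 level of 100.2 CPM was the highest of that group, the step was 0.54 (adjusted p = 0.00089). The 12 and 24 h libraries lie on opposite sides of the difference in Rn45s antisense counts, and the share of calls that were higher at this step moved from 37.4 to 52.2% under library size alone.

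The divergence of Ifngr1 and Ifngr2 from 4 h on showed in their ratio within a library, which needs no library size. The ratio of Ifngr2 to Ifngr1 counts was 1.25, 1.05 and 1.32 in the control libraries and 1.17, 1.13 and 1.09 at 1 h. It was 2.12, 1.66 and 1.81 at 4 h, 8.51, 7.26 and 5.65 at 12 h and 3.95, 4.24 and 3.63 at 24 h. From 4 h on, no treated library overlapped with the control, and the geometric mean of the ratio was 5.87 times that of the control at 12 h and 3.28 times at 24 h. Per kilobase of exon, Ifngr2 went from 0.91 times the level of Ifngr1 in the control to 5.39 times at 12 h.

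For the type I receptor, the ratio of Ifnar2 to Ifnar1 counts moved less. It was 0.544, 0.549 and 0.611 in the control libraries, and its geometric mean was 1.44 times that of the control at 4 h, 1.28 times at 12 h and 1.67 times at 24 h, without overlap. At 1 h the factor was 1.15 with overlapping libraries. Over both ratios and 7 treatments, 11 of 14 comparisons had groups that did not overlap. The BMDM comparisons share the same control libraries, so they are not independent. The share of all gene pairs without overlap is not given here, so no conclusion is drawn from this count. In an exact two-sided permutation test of the log2 ratios, 3 libraries against 3 cannot give a p below 0.1, and that value was reached in the 9 BMDM comparisons without overlap (adjusted p = 0.156 over the 14), so none passed a threshold of 0.05. With 2 against 2 in RAW264.7 the smallest possible p is 0.333.

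**Figure D3:**
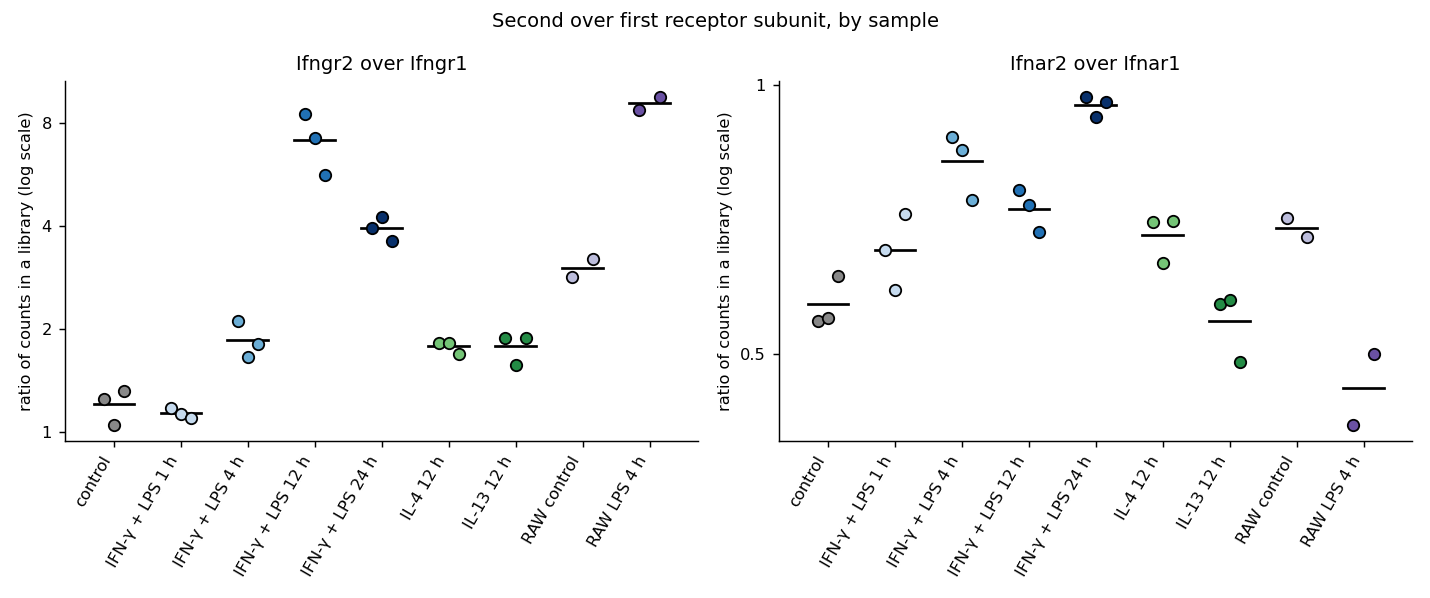
Ratio of the counts of Ifngr2 to Ifngr1 (left) and of Ifnar2 to Ifnar1 (right) in each library, on a log scale, by condition. Points are libraries and lines are group means. The Ifngr2 ratio is between 1.05 and 1.32 in control BMDMs, between 5.65 and 8.51 at 12 h and between 8.78 and 9.54 in RAW264.7 with LPS.

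The receptor genes on chromosome 16 have a relative between them. Il10rb, whose product is a chain of the receptors for IL-10, IL-22 and the lambda interferons, lies between Ifnar2 and Ifnar1, from 91406164 to 91425834 on the same strand. Its control level was 322.7 ± 2.84 CPM and its 4 h level 295 ± 6.53 CPM (SD, n = 3), a log2 difference of -0.18 (edgeR adjusted p = 0.088), and at 24 h it was lower by -0.30 (SE 0.092, adjusted p = 0.0046). Of the 5 neighbours Il10rb, Tmem50b, Dnajc28, Gart and Son, 1 was called higher and 1 lower at 1 h and at 4 h. The numbers were 0 and 1 at 12 h, and 0 and 2 at 24 h. Of 9568 genes tested, 14.7, 26, 23.9 and 23.9% were called higher at the 4 times, and 1080, 2446, 2236 and 2041 genes lower. At 4 h the median log2 fold change was -0.18 over the neighbours and -0.07 over all genes, whereas the 3 receptor genes stood between 0.45 and 1.40. The neighbour called lower at all 4 times was Dnajc28, with 11.9 ± 1.10 CPM in control and 0.555 ± 0.484 CPM in 4 h libraries, and the one called higher at 1 and 4 h was Tmem50b, with 80.4 ± 6.23 CPM in control and 149 ± 8.23 CPM in 1 h libraries (SD, n = 3). Both were named after their values were seen. Scaling by library size alone called 0 neighbours higher and 3 lower at 4 h.

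**Figure D4:**
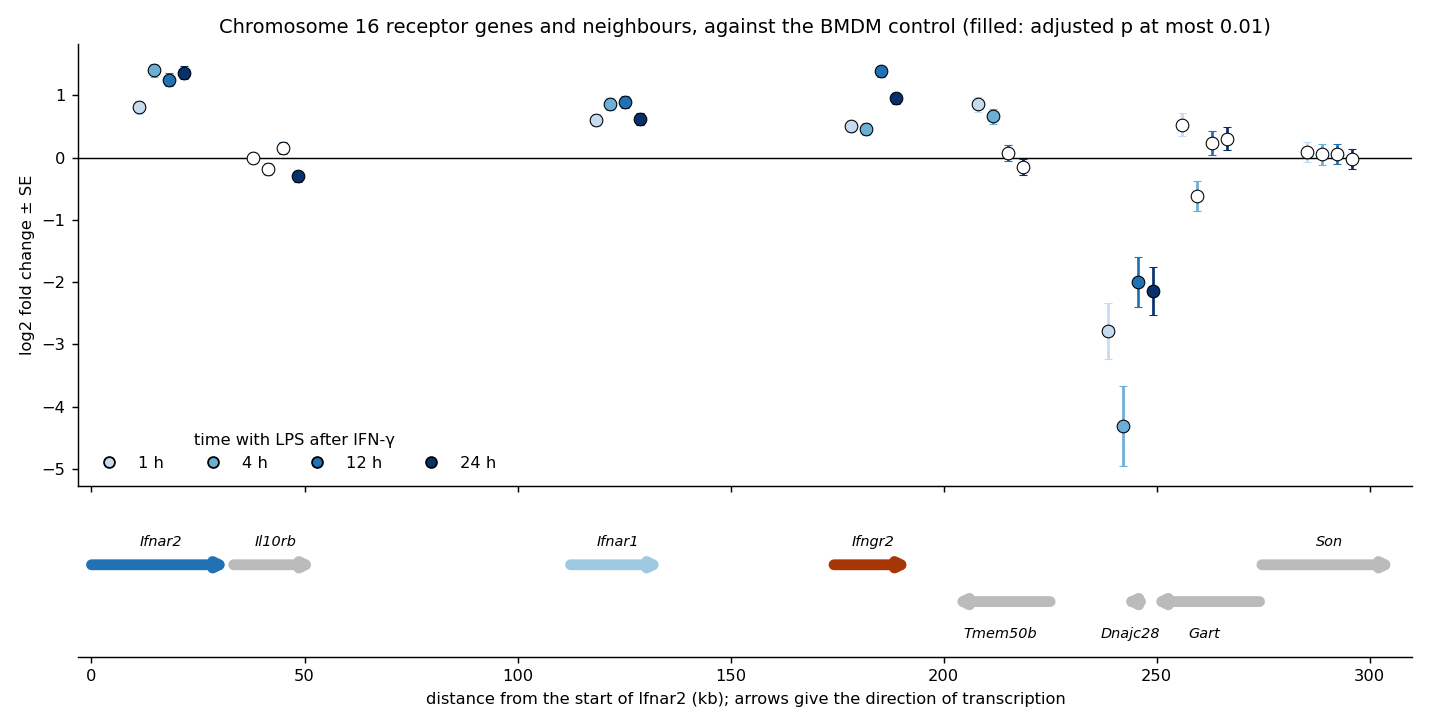
Log2 fold change against the control (vertical axis, with SE) of Ifnar2, Il10rb, Ifnar1, Ifngr2 and 4 genes beyond them at 1, 4, 12 and 24 h, placed by distance from the start of Ifnar2 in kb with the points of a gene spread sideways. Filled points passed an adjusted p of at most 0.01, and arrows show the genes and their direction. Ifnar2, Ifnar1 and Ifngr2 lie above 0 at each time, and Il10rb between them lies between -0.30 and 0.15.

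With IL-4 and IL-13, cytokines that act through receptors containing the IL-4 receptor alpha chain, Ifngr2 was the one interferon receptor gene of the 4 that was called. It had 298, 270.3 and 308 CPM with IL-4 and 321, 306 and 321 CPM with IL-13, all above the control libraries. The log2 fold changes were 0.45 (SE 0.090, edgeR adjusted p = 0.00019) and 0.56 (SE 0.089, adjusted p = 2.70e-06), and 4.38% and 5.61% of 9252 genes were called higher. The other 3 were not called. With IL-4 the values were -0.08 for Ifnar1, 0.18 for Ifnar2 and -0.12 for Ifngr1, with adjusted p between 0.32 and 0.66, and with IL-13 they were 0.09, 0.02 and -0.0048, with adjusted p between 0.60 and 0.98. The Ifnar2 libraries with IL-4 lay above the control without overlap. The 95% intervals reached from -0.27 to 0.10, from -0.03 to 0.38 and from -0.31 to 0.08 with IL-4, and from -0.10 to 0.27, from -0.19 to 0.23 and from -0.20 to 0.19 with IL-13. Il10rb, the related receptor gene between Ifnar2 and Ifnar1, was called higher as well, by 0.36 with IL-4 (SE 0.083, adjusted p = 0.0015) and 0.53 with IL-13 (SE 0.083, adjusted p = 1.88e-06). The treated and control libraries of these comparisons lie on opposite sides of the difference in Rn45s antisense counts. Between IL-13 and IL-4 none of the 4 genes was called, and none had an unadjusted p under 0.05 (10 of 9252 genes or 0.108% were called, and DESeq2 called none of the 4 either). The libraries of Ifnar1 and of Ifnar2 did not overlap between the cytokines, with differences of 0.17 and -0.15 (edgeR adjusted p = 0.78 and 0.84). No difference between the cytokines is drawn from this. The difference for Ifngr2 was 0.10 with a 95% interval from -0.07 to 0.28.

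At the same 12 h, the treatments were also set against each other in the fit of all 25 libraries. With IFN-γ and LPS, Ifnar1 was higher than with IL-4 by 1.02, Ifnar2 by 1.11 and Ifngr2 by 0.97, and Ifngr1 was lower by -0.9996 (SE 0.095, 0.099, 0.086 and 0.12, edgeR adjusted p at most 7.85e-12), where 21.1% of 10612 genes were higher and 19.9% lower. Against IL-13 the values were 0.84, 1.26, 0.86 and -1.12 in the same order of genes (adjusted p at most 3.06e-12, 21% of genes higher and 20% lower). The share of calls that were higher moved under library size alone from 51.5 to 29.6% and from 51.3 to 28%, and all 8 values kept their sign and their call. The ratio of Ifngr2 to Ifngr1 was 1.48 times that of the control with either cytokine, with libraries between 1.57 and 1.88. That of Ifnar2 to Ifnar1 was 1.20 times with IL-4 without overlap and 0.957 times with IL-13 with overlap.

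In RAW264.7 cells, LPS alone for 4 h left Ifngr1 and Ifnar2 lower and Ifngr2 higher. Ifngr1 had 43.8 and 39.6 CPM without LPS and 19.6 and 18.8 CPM with it, and fell by 1.08 on the log2 scale (SE 0.18, edgeR adjusted p = 1.74e-08). Ifnar2 had 59.5 and 64.3 CPM without LPS and 38.7 and 42.7 CPM with it, a change of -0.56 (SE 0.14, adjusted p = 0.00052). Ifngr2 rose from 125 and 127 CPM to 172 and 179 CPM, by 0.52 (SE 0.096, adjusted p = 4.56e-07). These 3 genes did not overlap between the groups. With so few libraries in each group, a gene without any change can also show no overlap. The share of all genes without overlap is not given here. Of 9406 genes 12.8% were called lower and 15.1% higher, and the share of calls that were higher moved from 54 to 30.4% under library size alone, with the median of all genes at -0.18. The call of Ifnar2 was lost with DESeq2 (adjusted p = 0.055), without the second control library (-0.50, adjusted p = 0.013) and without the first LPS library (-0.49, adjusted p = 0.028).

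Ifnar1 had 83.8 and 95.2 CPM without LPS and 93 and 85.5 CPM with it, a log2 difference of 0.03 with a 95% interval from -0.19 to 0.26 (edgeR adjusted p = 0.85), and -0.15 under library size alone. Ifnb1 had 0 counts in both RAW264.7 control libraries and 6 and 2 counts, or 2.39 and 0.695 CPM, with LPS. It did not pass the filter on low counts there. When every gene with at least 1 count was tested, it was not called. The ratio of Ifngr2 to Ifngr1 was 2.84 and 3.20 without LPS and 8.78 and 9.54 with it, 3.03 times as high, while that of Ifnar2 to Ifnar1 was 0.659 times as high.

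The difference between the responses was tested in the fit of all 25 libraries, as the RAW264.7 change at 4 h less the BMDM change at 4 h. It was -2.05 for Ifnar2 (SE 0.18, edgeR adjusted p = 1.91e-16), -1.01 for Ifngr1 (SE 0.21, adjusted p = 9.32e-05) and -0.92 for Ifnar1 (SE 0.16, adjusted p = 2.02e-06), where 15.3% of 10612 genes were called lower. For Ifngr2 it was -0.03 with a 95% interval from -0.31 to 0.26 (adjusted p = 0.95). Without TMM factors, where the median of all genes moved from 0.03 to 0.47 and the share of calls that were higher from 39 to 70.1%, the value of Ifngr1 was -0.56 (adjusted p = 0.024) and that of Ifngr2 was 0.42 (adjusted p = 0.016). The cells, the medium and the agents all differ between these groups, and their parts cannot be told apart. Ifnb1 had 0 counts in both kinds of control, and its difference could not be tested.

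Untreated RAW264.7 cells had less of all 4 receptor genes than untreated BMDMs. The log2 differences were -2.08 for Ifngr1 (SE 0.13), -1.08 for Ifnar1 (SE 0.11), -0.79 for Ifnar2 (SE 0.12) and -0.75 for Ifngr2 (SE 0.10), with edgeR adjusted p at most 2.76e-08, where 33.7% of genes were lower. In bulk RNA, fewer cells of a type and less RNA per cell cannot be told apart. With LPS for 4 h, the 4 receptor genes were lower in RAW264.7 than in BMDMs that also had IFN-γ. The values were -2.005 for Ifnar1, -2.85 for Ifnar2, -3.09 for Ifngr1 and -0.78 for Ifngr2 (edgeR adjusted p at most 3.45e-10, 35% of genes lower). Ifnb1 was lower by -3.88 (edgeR adjusted p = 5.30e-08), on 6 and 2 counts against 29, 32 and 22. It entered this fit through BMDM groups with LPS, so its p-value adds no support of its own. The value of Ifngr2 was -0.09 under library size alone (adjusted p = 0.43), which was 0.71 below the median of all genes, and the share of calls that were higher moved from 47.1 to 67.3%.

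The genes that lead from TLR4 to Ifnb1 were mostly expressed already in the control. Of 9568 genes tested, 14.7, 26, 23.9 and 23.9% were called higher at 1, 4, 12 and 24 h. Called lower were 1080, 2446, 2236 and 2041 genes. Of 10 genes in the TLR4 list, 5 were called higher and 0 lower at 1 h (median log2 fold change 0.54, all genes -0.03), and 7 higher and 1 lower at 4 h (median 0.83, all genes -0.07). At 1 h the smallest adjusted p belonged to Cd14, the LPS co-receptor, which rose from 288 ± 25.9 to 2297 ± 147 CPM (SD, n = 3), and to Ticam1 (0.94), Traf3 (1.19) and Irf3 (0.73). At 4 h they belonged to Irf7, the factor for interferon alpha genes, which rose from 6.11 ± 1.21 to 1042 ± 133 CPM, and to Cd14 (3.89), Ikbke (2.11) and Tbk1 (1.05). Tlr4 itself, named after its values were seen because it was the gene called lower, went from 165 ± 19.3 to 69.1 ± 10.8 CPM at 4 h. At 12 and 24 h 6 genes were called higher and 1 lower. With library size alone, 4 genes in place of 7 were higher at 4 h.

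The kinase genes Jak1, Jak2 and Tyk2, with Stat2 and Irf9, were higher at 4 and 12 h. Of these 5 genes, 2 were called higher and 1 lower at 1 h, all 5 higher at 4 h and at 12 h, and 4 higher at 24 h (medians 0.21, 2.10, 2.11 and 1.997). Over all genes 14.7, 26, 23.9 and 23.9% were called higher at these times, with medians of -0.03, -0.07, -0.03 and 0.02. Jak2, the kinase of the chain encoded by Ifngr2, rose from 60.6 ± 4.47 to 244 ± 11.1 CPM at 1 h and to 1497 ± 61.8 CPM at 4 h (SD, n = 3). Stat2 was lower at 1 h, with 15.7 ± 1.69 against 26.6 ± 1.20 CPM, and higher at 4 h, with 499 ± 23.4 CPM. Irf9, whose product forms a complex with STAT proteins, was not called at 1 h (0.21, edgeR adjusted p = 0.32) and was higher by 2.10 at 4 h. Jak1, which serves both receptors, showed the smallest changes of the list, with 0.50 at 4 h (-0.03 under library size alone), 0.38 at 12 h and 0.12 at 24 h.

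Genes that restrain interferon receptor signalling rose in part at 1 h and in part later. Of 8 genes, 3 were called higher at 1 h, 5 at 4 h and 7 at 12 and at 24 h, with none lower (medians 0.48, 1.65, 1.28 and 1.42), where 14.7, 26, 23.9 and 23.9% of all genes were called higher and their medians lay between -0.07 and 0.02. Socs3 rose at 1 h to 599 ± 20.97 CPM from a control level of 0.723 ± 0.832 CPM (SD, n = 3), and the others called at 1 h were Ptpn6 (0.75) and Ptpn2 (1.15). Socs1, an inhibitor of JAK kinases, had 1.44 ± 1.37 CPM in the control and 1.36 ± 0.503 CPM at 1 h but 128 ± 10.6 CPM at 4 h. Usp18, whose product binds IFNAR2 and limits its signalling, had control, 1 h and 4 h levels of 1.26 ± 0.836, 2.59 ± 0.583 and 899 ± 41.6 CPM. With library size alone 1 of the 8 genes was lower at 4, 12 and 24 h, whereas with DESeq2 or edgeR's RLE factors none was, and RLE factors called 7 in place of 5 higher at 4 h.

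Genes listed as type I interferon targets and as interferon gamma targets were raised throughout. Which signal raised them was not tested. Over all genes 14.7, 26, 23.9 and 23.9% were called higher at 1, 4, 12 and 24 h. All 9 type I interferon targets were called higher at each of the 4 times, with medians of 5.29, 11.1, 10.0 and 8.88. Of 10 interferon gamma targets 9, 10, 10 and 10 were higher, with medians of 6.20, 6.91, 6.78 and 6.54. Neither median changed when a gene whose control was at 0 was set at its lower bound. Between 1 and 4 h all 9 type I targets rose again (median 5.22), as for Ifit2, whose control, 1 h and 4 h levels were 3.06 ± 0.820, 112 ± 14.3 and 4255 ± 359.5 CPM (SD, n = 3). The interferon gamma targets rose by a median of 0.48 over the same step (7 of 10 called higher), at which 19.8% of all genes were called higher. Gbp2, for example, had 2.69 ± 1.60 CPM in the control and 2614 ± 128 CPM at 1 h of LPS, which followed IFN-γ priming of unknown length. The interferon gamma target not called at 1 h was Nos2 (4.05, edgeR adjusted p = 0.30).

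**Figure D5:**
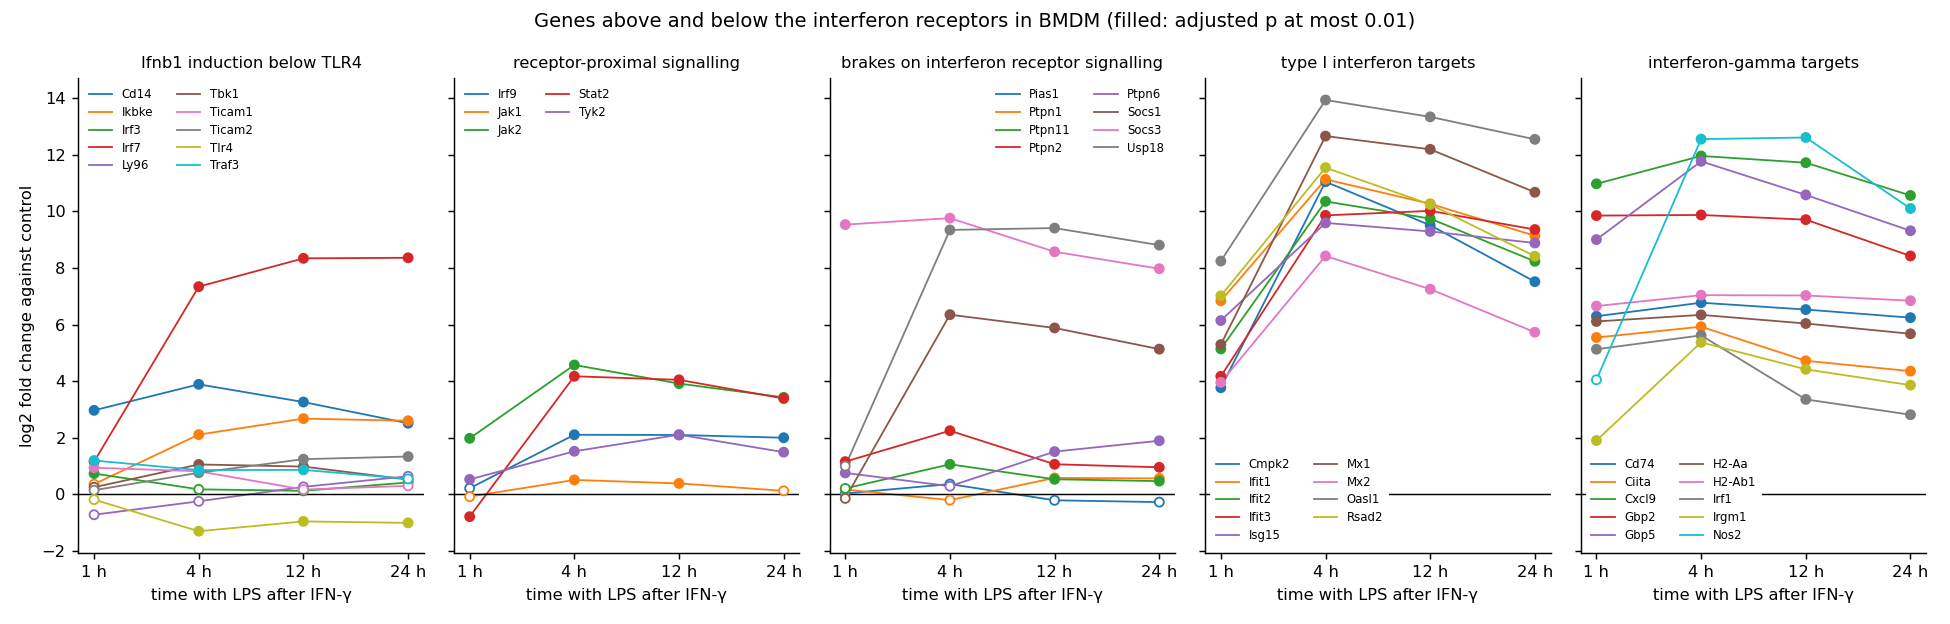
Log2 fold change against the control (vertical axis) of the genes of 5 lists at 1, 4, 12 and 24 h in BMDMs with IFN-γ and LPS. Each line is a gene, and filled points passed an adjusted p of at most 0.01. Type I interferon targets climb from 1 to 4 h (medians 5.29 and 11.1), while the medians of the interferon gamma targets are 6.20 and 6.91, with IFN-γ given before LPS for a time not stated.

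In RAW264.7 with LPS, 8 of 8 type I targets tested were higher (median 4.11). Among them Oasl1 rose from 20.6 ± 0.130 to 617 ± 42.5 CPM and Isg15 from 2.64 ± 1.68 to 71.0 ± 5.11 CPM (SD, n = 2). Both with library size alone and with DESeq2, 7 of the 8 were called. Ifnb1 had at most 6 counts a library there. LPS was given to these cells for 4 h only, so the level of Ifnb1 before that time is not known. Over all genes tested in RAW264.7, 15.1% were called higher and 12.8% lower. Of the kinases, Stat2 and Irf9, 3 of 5 were higher (Jak2, Irf9 and Stat2, by 1.20 to 1.96). Of the restraining genes 2 of 7 were higher (Socs3, 4.29, and Usp18, 3.03) and Ptpn6 was lower (-0.50). With IL-4 and IL-13, Jak2 was the only one of these 5 genes called, at 1.19 and 1.68 (edgeR adjusted p = 3.90e-12 and 2.41e-18), and Socs1 the only restraining gene, with 11.7 and 19.4 CPM against 1.44 in the control. Cd14 was lower by -1.89 and -1.92. No type I target passed the filter on low counts in those groups. Of 6 interferon gamma targets 3 were higher with IL-4 and 4 with IL-13, where 4.38 and 5.61% of all genes were called higher.

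Across the 25 libraries, the course of Ifnb1 was most like those of Sele, Il23a and Ccnl1 (Pearson r of log2 CPM 0.976, 0.967 and 0.952), out of 10611 genes compared. For Ifnar1 the closest genes were Trpc4ap, Tmbim6 and H2-DMb1 (each 0.977), for Ifnar2 H2-T23, Parp8 and Mfsd7a (0.974, 0.973 and 0.971), for Ifngr1 Nrp1, Prcp and Hgf (0.986, 0.968 and 0.956) and for Ifngr2 Alas1, Igsf6 and Sla (0.962, 0.954 and 0.937). Ifnar1 and Ifnar2 correlated at 0.958, Ifngr1 and Ifngr2 at 0.352. The libraries share groups and cell types, so these values describe the 9 conditions more than 25 independent points.

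The labelled cell types were checked against marker lists. All 7 macrophage markers had means above 10 CPM in every BMDM group, and in RAW264.7 Mertk was at 0 while the other 6 had means above 10 CPM. Of 5 markers of plasmacytoid dendritic cells, which are known for type I interferon, Siglech and Ly6d were at 0 in all BMDM libraries. The summed level of the list moved with the treatment, mostly through Bst2. It lay between 128 and 144 CPM in control libraries and between 278 and 305 CPM after 1 h. After 4 h it lay between 654 and 745 CPM, and after 24 h between 1389 and 1532 CPM. In the same order, Bst2 had means of 59.9, 210, 428 and 1407 CPM and Tcf4 of 78.3, 80.5, 261 and 56.6 CPM. Of 5 conventional dendritic cell markers, the list was at 0.536 to 1.63 CPM in the control and 48.7 to 54.2 CPM at 1 h, when Ifnb1 was highest, and nearly all of that was Clec9a, while Flt3 and Cd209a were at 0. Markers of T cells and NK cells, which make interferon gamma, summed to at most 0.577 and 3.34 CPM. The neutrophil list held 12.3 to 49.3 CPM and the fibroblast list 52.5 to 109 CPM in BMDMs, against at most 1.39 and 0 CPM in RAW264.7. The part of these cells in the levels of the interferon genes was not tested.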

How the data were processed

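RNA was sequenced after depletion of rRNA (the labels also call it polyA RNA) from 25 libraries prepared with a directional kit. Per the submitters' processing notes and the study's methods, the authors used CASAVA 1.8.2, trimmed reads with Trimmomatic 0.33 and aligned them to mm10 with STAR 2.5.1. They deposited raw read counts per gene symbol, unstranded and for each strand. The annotation release is not given in the sources used here. Sense counts were used (118 for each antisense count), and reads matching no gene feature (62.7 to 69.1%) and Rn45s were left out.

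Fits were edgeR 4.0.16 (R 4.3.3) robust quasi-likelihood tests with TMM factors on genes passing filterByExpr. Separate fits served the time course (15 libraries), IL-4 and IL-13 (9) and RAW264.7 (4), and 1 fit of all 25 served comparisons between them. CPM come from the last fit. Replicate pairs differed by 1.30 to 4.53 times sampling noise (chi-square per degree of freedom), so no pair differed by sampling noise alone. Whether a pair came from the same RNA cannot be told from this. The scripts were tested on simulated data. Alternatives were DESeq2 1.42.0, RLE factors, filters on low counts, unstranded counts, Rn45s kept, a replicate block, other sample sets and leaving out each library. Library size alone was added after the data were seen. The members, all gene lists and motifs were chosen with earlier results of these data known. From each list, up to 4 genes with the smallest adjusted p were named (1 gene of the signalling list is not reported here), and for likeness the 3 genes with the highest r.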

Additional observations from a re-analysis of the deposited data

Results flagged for a closer look

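The RAW264.7 response to LPS at 4 h differed from the BMDM response to IFN-γ and LPS at 4 h, by edgeR's test of the difference itself, for Ifnar1 (-0.92 on the log2 scale), Ifnar2 (-2.05) and Ifngr1 (-1.01). The agents differ between these groups, so this is not a comparison of the same treatment.

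Counts on the strand opposite to the gene, which no comparison above uses, were, once scaled to CPM, above all 3 control libraries in a few groups. The counts themselves tied with a control library for Ifnar2 at 12 h and for Ifngr2 at 1 h. For Ifnar2 the antisense level was 3.53 CPM at 1 h (19 counts over 3 libraries, 5 to 9 each) and 1.799 CPM at 12 h (9 counts, 2 to 4 each), against 0.721 CPM in the control (4 counts, 1 to 2 each). For Ifngr2 it was 0.927 CPM at 1 h (5 counts, 1 to 2 each) and 2.19 CPM at 12 h (11 counts, 2 to 5 each), against 0.361 CPM (2 counts, 0 to 1 each). Antisense counts of Ifnar2 were 1.86% of its sense counts at 1 h, 0.688% at 12 h and 0.67% in the control, and over all genes without Rn45s the share was 1.21%.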

How the results depend on the processing

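Of 240 alternative counts of called genes, 234 lay within 1.5 times the reported count, and of 1097 alternative fold changes 1057 kept direction and side of the threshold, 6 lost the call, 10 gained it and 24 turned sign. From 12 to 24 h, 2 genes in place of 1 were called under library size alone, with at least 10 counts in every sample, with Rn45s kept, with all 25 samples and with the replicate block. Leaving out 1 library gave 1 to 2, the 2 without the third 12 h library. Under library size alone the sign turned for Ifngr2 at 4 h (-0.0769), Ifnar1 from 1 to 4 h (-0.0792), Ifnar2 from 4 to 12 h (0.0707), Ifnar1 in RAW264.7 (-0.146), Ifngr1 with IL-13 (0.0349) and the response difference of Ifngr2 (0.415). Of values not called, Ifngr1 with IL-13 also turned with RLE factors (0.00447), every gene of at least 1 count (0.0133), Rn45s kept (0.00348), DESeq2 (0.00431), all 25 samples (0.0149) and without single libraries (-0.0718 to 0.0531), Ifnar1 in RAW264.7 with all 25 samples (-0.00551) and without single libraries (-0.0488 to 0.13), and the Ifngr2 response difference with at least 10 counts (0.161), Rn45s kept (0.0407) and without single libraries (-0.0627 to 0.0167). Without single libraries, Ifnar1 from 4 to 12 h ranged from -0.0442 to 0.0898 and Ifnar2 with IL-13 from -0.00306 to 0.0411. Causes were not tested.

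Ifnar1 was called from 1 to 4 h (0.28, adjusted p = 0.00947) and from 12 to 24 h (-0.32, adjusted p = 0.00654) with all 25 samples, and in the latter step with Rn45s kept (-0.32, adjusted p = 0.00957). Over all genes, RAW264.7 gave 2625 calls with edgeR and 1226 with DESeq2, IL-13 against IL-4 gave 10, or 18 with every gene of at least 1 count and 4 with at least 10, and this stricter filter left 2755 of 4353 and 2749 of 4350 calls for IFN-γ and LPS at 12 h against IL-4 and IL-13, 4158 of 6959 between the controls and 4155 of 7030 between the 4 h groups. Same-numbered replicates did not deviate together (mean correlation 0.020 in the time course). With the replicate block 2 genes were called from 12 to 24 h, as Ifngr1 passed (0.39, adjusted p = 0.00943), and the number called changed in no other comparison. Depth limits Ifnb1, which had at most 3 counts a library at 12 and 24 h and at most 6 in RAW264.7.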
